A study of Arabidopsis thaliana with 9 samples.

Results

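*ACS6* (AT4G11280), *ACS8* (AT4G37770) and *EIN3* (AT3G20770) are 3 Arabidopsis genes of ethylene synthesis and signalling, and their transcript levels were followed in leaves that overexpress a cassava glutaredoxin. Each gene is measured by 1 probe set, a group of short oligonucleotides that together report a transcript. The 3 probe sets stand among 22746 tested ones on an array that holds 22810. They were found by name: *EIN3* (257981_at) is named in the platform annotation, whereas *ACS6* (254926_at) and *ACS8* (253066_at) are named only through the study's own list of gene ontology terms. That list holds genes which the study had found to change on these same arrays. Neither a change of *ACS6* and *ACS8* nor its direction is therefore independent evidence.

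Ethylene is a gaseous hormone with roles in stress, defense, leaf ageing and growth. ACC synthases (the ACS family) turn S-adenosylmethionine into the precursor ACC, usually the limiting step, and ACC oxidases turn ACC into ethylene. The gas is sensed by receptors that act through the kinase CTR1 and the membrane protein EIN2 on EIN3, a transcription factor that switches on the response genes and whose protein is broken down when ethylene is absent. ACS6 protein is stabilised when the MAP kinases MPK3 and MPK6 phosphorylate it, and its transcript is known to rise on touch and stress. ACS8 belongs to another subgroup, whose proteins are marked for breakdown by ETO1-type adaptors, and its transcript is known to follow the daily clock in seedlings.

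Total RNA came from mature leaves of 45-day-old transgenic plants kept in 12 h of light under normal conditions. It was hybridized to 9 Affymetrix ATH1 arrays, 3 for each of 3 groups. *MeGRXC15*-OE plants, which the sample labels call MeGRX232-OE (lines 3, 9 and 12), carry a cassava CC-type glutaredoxin fused to GFP under a constitutive cauliflower mosaic virus promoter, in Col-0. MeGRX360-OE plants (lines 5, 11 and 20) by their label overexpress another cassava glutaredoxin. The digits of that label also end the gene model which the paper lists as MeGRXC18, a match that is inferred here and not stated there, and no construct is described for these Arabidopsis plants. Control plants carry the empty vector pG1300, also in Col-0 (arrays 1, 2 and 3). The *MeGRXC15*-OE arrays are separate homozygous lines, whereas for MeGRX360-OE only the line numbers in the labels tell the arrays apart. Whether each vector array is a line of its own is not stated outright.

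Intensities are on a linear scale and were normalized between arrays by the authors. The array medians lay between 28.1 and 30.2, and within groups the log2 intensities of the arrays correlated at 0.967 to 0.991 over probe sets, which are not independent replicates. *RCA* (rubisco activase), the 1 leaf marker of 4 with a named probe set, read 11125 to 11615 on vector arrays, 8988 to 9340 for MeGRX360-OE and 6875 to 8038 for *MeGRXC15*-OE, with no overlap. Its log2 fold change against vector was -0.57 in *MeGRXC15*-OE (adjusted p = 0.00328) and -0.30 in MeGRX360-OE (adjusted p = 0.0676). None of the 9 root, flower or seed markers looked for is named here, so other tissues were not checked. The intensity of the GAPDH probe set at the 3 prime end over that at the 5 prime end, a measure that goes up in degraded RNA, was 16.1 in line 5 of MeGRX360-OE and 8.96 to 11.1 on the other 8 arrays. The same ratio for actin was 14.8 in line 5, within the range of the other 8 arrays (12.0 to 20.1). It was 12.0 to 14.8 for MeGRX360-OE, 13.6 to 20.1 for *MeGRXC15*-OE and 17.9 to 19.2 on vector arrays. The 25S rRNA probe set read 279 to 350 on vector arrays, 430 to 616 for *MeGRXC15*-OE and 853 to 1073 for MeGRX360-OE, so it moved with the groups. The part of *RCA* and of these control measures in the results was not tested. In whole leaves, fewer cells of a type and less RNA per cell cannot be told apart.

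The comparisons ask whether the transcripts of these genes differ between each OE group and the vector plants, and between both OE groups. Differences are given as log2 fold changes from limma, with p-values adjusted by Benjamini-Hochberg over all 22746 probe sets. The words rose and fell are kept for an adjusted p under 0.05. Both OE groups were set against the same 3 vector arrays, so the 2 comparisons with vector are not independent. Where groups of 3 arrays are said not to overlap, this is a description only. The share of all probe sets for which this holds was not counted.

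*ACS6* was about 9 times as high in both OE groups as in vector leaves. Its intensity in *MeGRXC15*-OE was 2607 in line 3, 1499 in line 9 and 2948 in line 12. In MeGRX360-OE it was 2341 in line 5, 2164 in line 11 and 2642 in line 20. The vector arrays gave 125, 381 and 315. All 6 OE arrays lay above all 3 vector arrays, and the ranges of the OE groups overlapped, with line 9 as the lowest OE array and vector array 1 the lowest of all.

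The rise of *ACS6* was 3.20 on the log2 scale in *MeGRXC15*-OE against vector (SE 0.40, 95% interval 2.28 to 4.12, adjusted p = 8.03e-04, 9.16-fold). In MeGRX360-OE against vector it was 3.27 (SE 0.40, 95% interval 2.35 to 4.19, adjusted p = 0.00134, 9.63-fold). Among all probe sets tested, *ACS6* held rank 183 from the largest rise in the first comparison and rank 90 in the second. Between both OE groups the difference was -0.07 (95% interval -0.99 to 0.85, adjusted p = 0.963), an interval that still allows either group to be higher by nearly 1 on the log2 scale. Vector array 1 weighed most on the size of the rise, which was 2.70 and 2.78 without it. Over 26 alternative fits of both comparisons with vector, the rise of *ACS6* lay between 2.70 and 3.58 and its adjusted p between 3.53e-04 and 0.00841.

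*ACS8* had higher values in both OE groups than in vector leaves but did not pass the test. In *MeGRXC15*-OE its intensity was 72.0 in line 3, 76.9 in line 9 and 31.2 in line 12, and in MeGRX360-OE it was 87.3 in line 5, 41.4 in line 11 and 33.3 in line 20. Vector arrays were close together at 24.4, 22.6 and 27.3. Although every OE array lay above every vector array, the lines of a group fell apart: lines 3, 9 and 5 were high, while lines 12 and 20 stood only slightly above the vector arrays, which themselves were below the median intensity of their arrays.

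The log2 fold change of *ACS8* was 1.17 in *MeGRXC15*-OE (SE 0.41, 95% interval 0.23 to 2.11, adjusted p = 0.0779) and 1.00 in MeGRX360-OE (SE 0.41, 95% interval 0.06 to 1.94, adjusted p = 0.149). Both passed the thresholds named in the study's text, more than 2-fold at the unadjusted 0.05 level, which 5.66% and 4.31% of all probe sets passed as rises. In MeGRX360-OE the pass was only just made, at 2.00-fold when rounded. *ACS8* was named through the study's list of changed genes, so its passing is not independent evidence. Between the OE groups the difference was 0.17 (95% interval -0.77 to 1.11, adjusted p = 0.906). The call in *MeGRXC15*-OE turned on line 12: without it the fold change was 1.59 (adjusted p = 0.0154). It was also past the threshold when arrays were weighted by quality (1.40, adjusted p = 0.00788). In MeGRX360-OE the size turned on line 5, without which the fold change was 0.59 (adjusted p = 0.354).

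*CCA1*, a core clock gene whose transcript peaks at dawn, is given here because *ACS8* is a clock-driven transcript; it was chosen with its values known. *CCA1* fell in both OE groups, with log2 fold changes of -3.07 (adjusted p = 1.75e-04) in *MeGRXC15*-OE and -2.03 (adjusted p = 0.00208) in MeGRX360-OE. Vector leaves had 793 to 929, MeGRX360-OE leaves 166 to 250 and *MeGRXC15*-OE leaves 63.2 to 140, with no overlap between the 3 groups. The sources used here do not give the hour at which each group was harvested, and the part of the clock in the *ACS8* values was not tested.

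*EIN3* rose in *MeGRXC15*-OE alone of the 2 OE groups, by less than 2-fold, and the difference between the OE groups did not pass the test. Its intensity was 641, 567 and 645 in lines 3, 9 and 12 of *MeGRXC15*-OE. In MeGRX360-OE it was 602 in line 5, 341 in line 11 and 405 in line 20, and the vector arrays gave 361, 288 and 360. The 3 *MeGRXC15*-OE lines were close together and all above the vector arrays, whereas in MeGRX360-OE line 5 reached the *MeGRXC15*-OE values and line 11 lay within the vector range.

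For *EIN3* the log2 fold change was 0.88 in *MeGRXC15*-OE (SE 0.20, 95% interval 0.42 to 1.34, adjusted p = 0.0134, 1.84-fold). In MeGRX360-OE it was 0.38 (SE 0.20, 95% interval -0.07 to 0.84, adjusted p = 0.258). *MeGRXC15*-OE stood above MeGRX360-OE by 0.50 (95% interval 0.04 to 0.96, adjusted p = 0.326). The call rested on vector array 2, the lowest, since without it the fold change was 0.77 with an adjusted p = 0.0571. Without line 5, MeGRX360-OE exceeded vector leaves by 0.15 (limma adjusted p = 0.585) and *MeGRXC15*-OE exceeded MeGRX360-OE by 0.73 (limma adjusted p = 0.0743). Line 5 had the highest GAPDH ratio of all arrays but not the highest actin ratio.

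**Figure D1:**
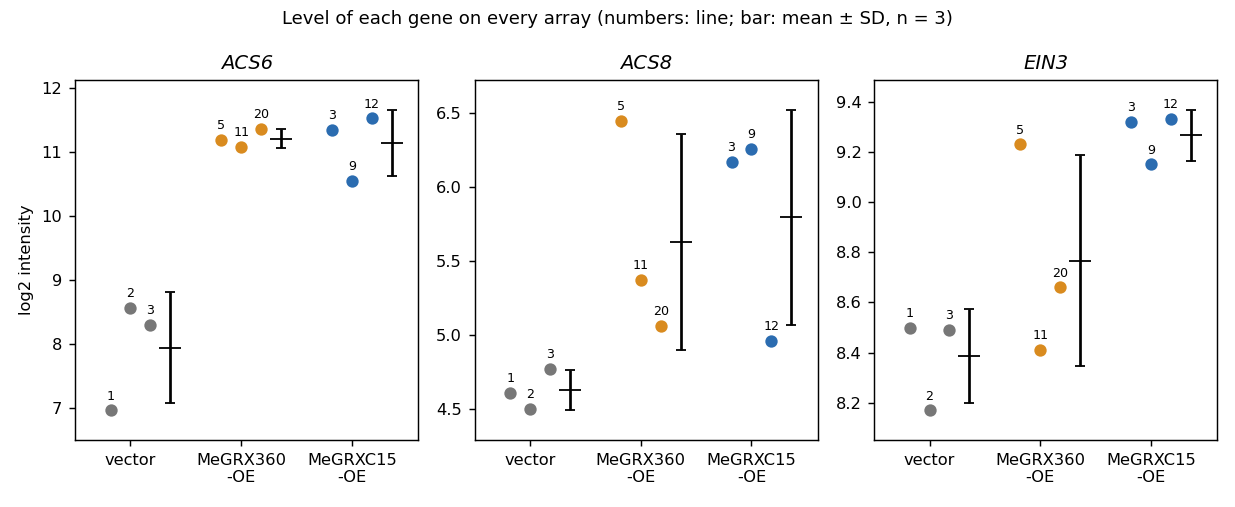
Log2 intensity (vertical axis, a scale of its own for each gene) of *ACS6*, *ACS8* and *EIN3* on each of the 9 arrays, by group, with the line or vector array number above each point and the mean ± SD (n = 3) beside them. *ACS6* sits at 1499 or more in all OE arrays against at most 381 in vector arrays, *ACS8* is spread within the OE groups, and for *EIN3* the MeGRX360-OE lines span the gap between the other groups.

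Set against the background, 2 of the 3 genes were called in *MeGRXC15*-OE against vector, both as rises, where 22.0% of all probe sets were called, 9.22% as rises and 12.8% as falls. In MeGRX360-OE against vector 1 of 3 was called, *ACS6*, where 16.5% of probe sets were called, 6.74% as rises and 9.72% as falls. None of the 3 was called between the OE groups with limma. In that comparison 0.145% of probe sets (33) passed, 13.5% (3076) had an unadjusted p under 0.05, and of the 3 genes only *EIN3* had one. The median log2 fold change over the 3 genes was 1.17 and 1.00 in the comparisons with vector and 0.17 between the OE groups, beside 0.00, 0.01 and -0.00 over all probe sets. *ACS6* and *ACS8* were named through the study's list of changed genes. Neither the counts nor the medians against vector are therefore independent evidence of a change.

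**Figure D2:**
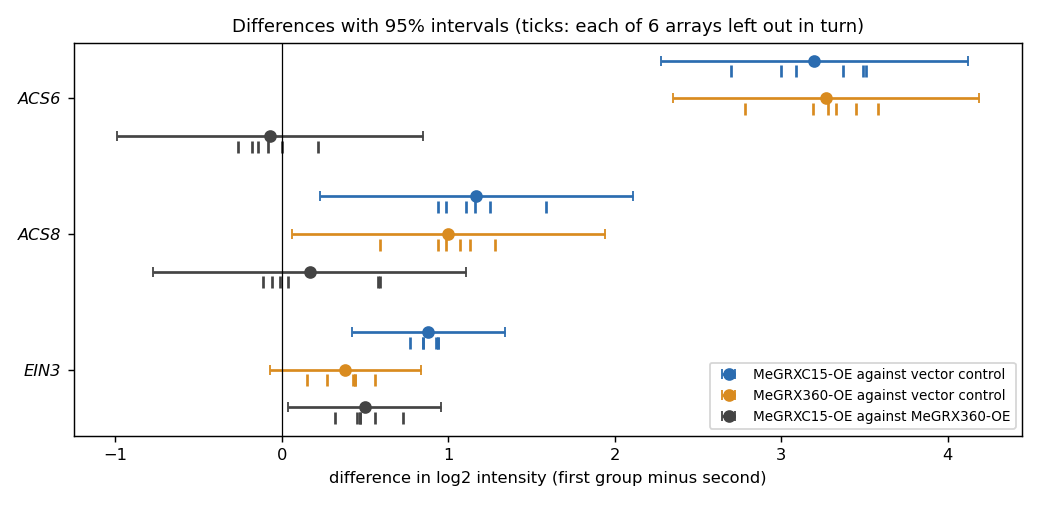
Difference in log2 intensity (horizontal axis) of each gene in the 3 comparisons, as points with the 95% interval from limma; the small ticks under each point are the values with each of the 6 compared arrays left out in turn. The *ACS6* intervals against vector start at 2.28 and 2.35, those of *ACS8* at 0.23 and 0.06, and the *EIN3* interval of MeGRX360-OE against vector spans 0.

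The order of the group means was the same for *ACS8* and *EIN3*. *ACS8* had geometric means of 55.7 in *MeGRXC15*-OE, 49.4 in MeGRX360-OE and 24.7 in vector leaves. No groups in this order, its ends included, differed beyond their spread by the adjusted test. *EIN3* had 616, 436 and 335 in the same order, where only the ends of the order differed. For *ACS6* the order was MeGRX360-OE at 2374, *MeGRXC15*-OE at 2258 and vector at 246, and the 2 OE groups did not differ beyond their spread while both exceeded vector.

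The genes differed in how much arrays of the same group varied. Within groups the log2 SD was 0.59 for *ACS6* and 0.60 for *ACS8*, larger than for 95.0% and 95.2% of probe sets, and 0.27 for *EIN3*, larger than for 73.4%, beside a median of 0.19 over all probe sets. The spread lay in different places. For *ACS6* it was widest in vector arrays (SD 0.86) and narrowest in MeGRX360-OE (SD 0.14), whereas for *ACS8* it was 0.73 in each OE group and 0.14 in vector arrays. For *EIN3* it was 0.42 in MeGRX360-OE, 0.19 in vector and 0.10 in *MeGRXC15*-OE.

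Single lines did not depart from their group in the same way in every gene. Line 5 was above its group mean by 0.82 for *ACS8* and 0.46 for *EIN3* but at -0.02 for *ACS6*. Line 12 was the highest of its group for *ACS6* (0.38 above the mean) and *EIN3* (0.07) and the lowest for *ACS8* (-0.84). Line 9 showed the reverse of line 12, with -0.59 for *ACS6*, -0.12 for *EIN3* and 0.47 for *ACS8*. These are departures of single arrays and carry no test.

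Over the 9 arrays, after each gene was centred on its own mean, *ACS8* and *EIN3* were closest to each other, with a root mean square difference of 0.50 on the log2 scale. *ACS6* was 1.28 from *ACS8* and 1.36 from *EIN3*. The 3 platform-named genes most like each member were then taken from 13513 candidates by the same measure. For *ACS6* they were AT2G27080 (0.31 away), AT4G30660 (0.36) and AT5G52050 (0.39), a MATE-type transporter, and their log2 fold changes in *MeGRXC15*-OE against vector were 3.52, 3.81 and 3.69.

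For *ACS8* the nearest genes were AT2G47440 (0.24), AT1G72790 (0.27) and AT3G61160 (0.27), a shaggy-like kinase. Like *ACS8*, all 3 were highest in line 5 and, among the *MeGRXC15*-OE lines, lowest in line 12. They were chosen as closest to *ACS8* over these same arrays, so a shared line pattern is built into the choice. For *EIN3* the nearest were AT2G02370 (0.11), AT5G41560 (0.12) and AT1G09910 (0.13), with log2 fold changes of 0.96, 0.84 and 0.78 in *MeGRXC15*-OE against vector. The likeness is a description over 9 arrays in 3 groups, and genes with small changes lie closer by this measure.

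**Figure D3:**
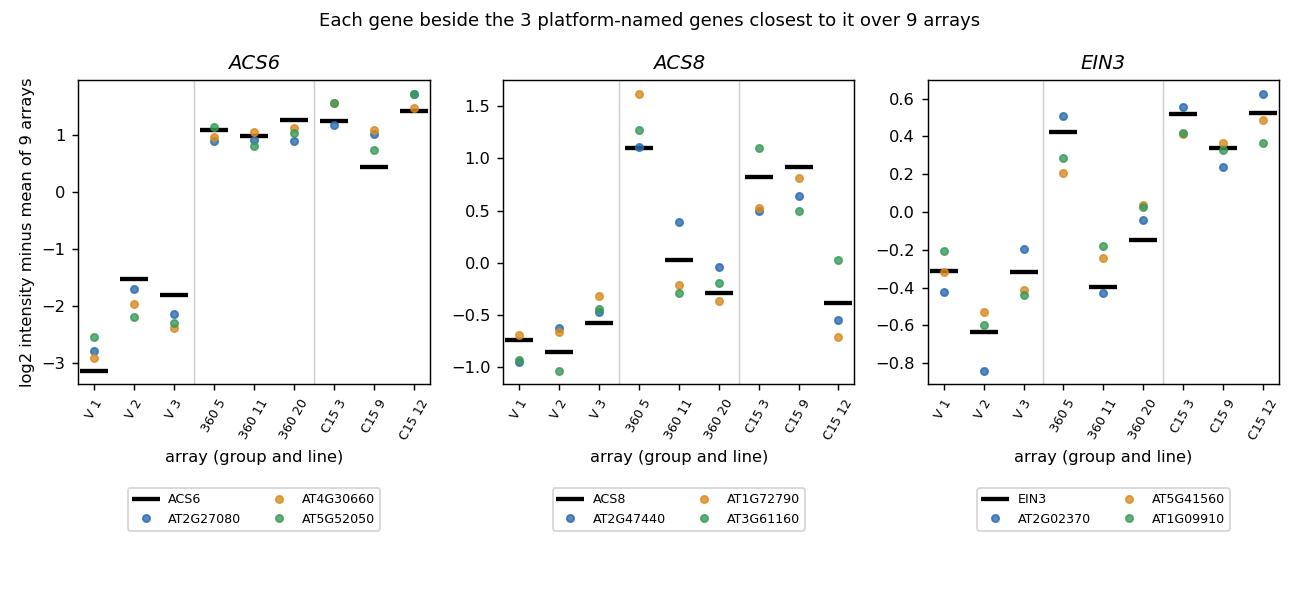
Log2 intensity minus the mean of the 9 arrays (vertical axis) for each gene, drawn as black bars, and for its 3 nearest platform-named genes, drawn as coloured points; arrays are named by group (V vector, 360 MeGRX360-OE, C15 *MeGRXC15*-OE) and line. The points of the nearest genes lie within 0.31 to 0.39 of *ACS6*, 0.24 to 0.27 of *ACS8* and 0.11 to 0.13 of *EIN3* as root mean square differences.

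The rest of the pathway was taken from 8 lists with 63 genes, the 3 genes above included. Genes were matched by the names in both sources, and 12 of the other 60 have a named probe set. In *MeGRXC15*-OE against vector 5 of these 12 rose, 2 fell and 5 did not pass, with a median of 0.21, where 9.22% of all probe sets rose and 12.8% fell. In MeGRX360-OE against vector 4 rose, 1 fell and 7 did not pass, with a median of 0.27, where 6.74% of all probe sets rose and 9.72% fell. All of those called are among the 7 named through the study's list, which holds changed genes: *MAT3*, *ACS10*, *MPK3*, *WRKY33*, *ERF1B*, *EDF2* and *EDF4*. Neither these counts nor the changes of these genes against vector are therefore independent evidence of a change or its direction. None of the 5 others, named in the platform annotation, was called in either comparison with limma, though *RTE1* had an unadjusted p under 0.05 in both. Between the OE groups limma called none of the 12. An unadjusted p under 0.05 was found for 4 of the 7 from the study's list and 1 of the 5 others, beside 13.5% of all probe sets. The list was drawn with the *MeGRXC15*-OE arrays, which are also in this comparison, so that count is not independent evidence either.

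Upstream of ACC, *MAT3*, an S-adenosylmethionine synthetase and the 1 gene of 10 with a named probe set on the list of methionine supply, fell in both OE groups. Vector leaves had 477 to 781, MeGRX360-OE leaves 143 to 284 and *MeGRXC15*-OE leaves 101 to 129. The log2 fold changes were -2.36 (SE 0.27, adjusted p = 5.02e-04) and -1.45 (SE 0.27, adjusted p = 0.00801). Thus the 3 groups did not overlap for *MAT3*, though between the OE groups the difference of -0.91 did not pass (adjusted p = 0.201).

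Of 11 ACC synthase genes 3 have a named probe set, *ACS6*, *ACS8* and *ACS10*. *ACS10* belongs to the family by sequence, but its protein is known as an aminotransferase rather than an ACC synthase. It fell in *MeGRXC15*-OE, with 99.4 to 115 against 223 to 273 in vector leaves (log2 fold change -1.18, SE 0.15, adjusted p = 9.39e-04). In MeGRX360-OE it was at 162 to 230, overlapping the vector arrays (-0.37, SE 0.15, adjusted p = 0.154). *ACS10* and *ACS6* thus lay on opposite sides of vector leaves in *MeGRXC15*-OE.

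Of the 5 ACC oxidases only AT1G12010 has a named probe set, and it did not pass in either comparison with vector. Its log2 fold changes were -0.48 (adjusted p = 0.261) in *MeGRXC15*-OE and 0.21 (adjusted p = 0.672) in MeGRX360-OE. The study's list places 4 probe sets under ethylene synthesis, the 3 ACS genes above and the entry Q9FX43_ARATH, which no table used here ties to a listed gene and which is outside the counts above. It rose by 2.50 (SE 0.27, adjusted p = 3.55e-04) and 1.77 (SE 0.27, adjusted p = 0.00302) in the same order.

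Of 9 regulators of ACC synthases 2 have a probe set named here, and both rose in each OE group. Over all probe sets 9.22% rose in *MeGRXC15*-OE and 6.74% in MeGRX360-OE. Both regulators are named through the study's list of changed genes, so their rises are not independent evidence. *MPK3*, the MAP kinase that phosphorylates ACS6, had intensities of 650 to 756 in vector leaves, 1837 to 2324 in MeGRX360-OE and 2245 to 3118 in *MeGRXC15*-OE. It rose by 1.89 (SE 0.15, adjusted p = 9.05e-05) and 1.52 (SE 0.15, adjusted p = 5.51e-04). *WRKY33*, a defense transcription factor that acts downstream of these kinases and binds the *ACS6* promoter, went from 120 to 167 in vector leaves to 1224 to 2184 in *MeGRXC15*-OE and 742 to 1475 in MeGRX360-OE. Its rises were 3.54 (SE 0.29, adjusted p = 1.18e-04) and 3.01 (SE 0.29, adjusted p = 5.42e-04).

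None of the 5 receptors has a named probe set, and of 9 genes that relay the signal from receptor to EIN3 only 2 have one. *RTE1*, a promoter of receptor ETR1 activity, differed from vector by 0.31 (adjusted p = 0.124) and 0.33 (adjusted p = 0.120). *ETP2*, an F-box protein that targets EIN2 for breakdown, differed by -0.07 (adjusted p = 0.848) and -0.18 (adjusted p = 0.582). Neither passed the test.

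In the EIN3 family 3 of 6 genes have a named probe set. The EIN3-like genes AT5G10120 and AT5G65100 stayed at intensities of 4.55 to 5.48 and 6.43 to 9.07 on all 9 arrays, low in the range of the array, whose lowest value is 3.242. Their fold changes against vector lay between -0.02 and 0.13 on the log2 scale and did not pass (AT5G10120, 0.12 with adjusted p = 0.483 and 0.07 with adjusted p = 0.715; AT5G65100, -0.02 with adjusted p = 0.929 and 0.13 with adjusted p = 0.526). *EIL1*, the closest relative of *EIN3*, has no named probe set here.

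Of 8 known targets of EIN3 3 have a named probe set, all of them named through the study's list of changed genes. Their changes against vector are therefore not independent evidence. *EDF2* and *EDF4*, transcription factors of the RAV family, rose in both OE groups: *EDF2* by 1.74 (SE 0.35, adjusted p = 0.00715) and 1.47 (SE 0.35, adjusted p = 0.0212), and *EDF4* by 1.99 (SE 0.32, adjusted p = 0.00232) and 1.74 (SE 0.32, adjusted p = 0.00686). In vector leaves *EDF2* was at 229 to 620 and *EDF4* at 139 to 312, with array 3 the highest for both, and no OE array of either gene reached down to these ranges. *ERF1B*, an ERF gene switched on directly by EIN3, rose in *MeGRXC15*-OE by 1.01 (SE 0.23, adjusted p = 0.0135), from 10.4 to 14.8 in vector leaves to 20.2 to 34.4. These vector values were below the array medians of 28.1 to 30.2. In MeGRX360-OE *ERF1B* was at 14.4 to 19.4 and did not pass (0.41, adjusted p = 0.295), and its difference between the OE groups was 0.60 (adjusted p = 0.306).

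**Figure D4:**
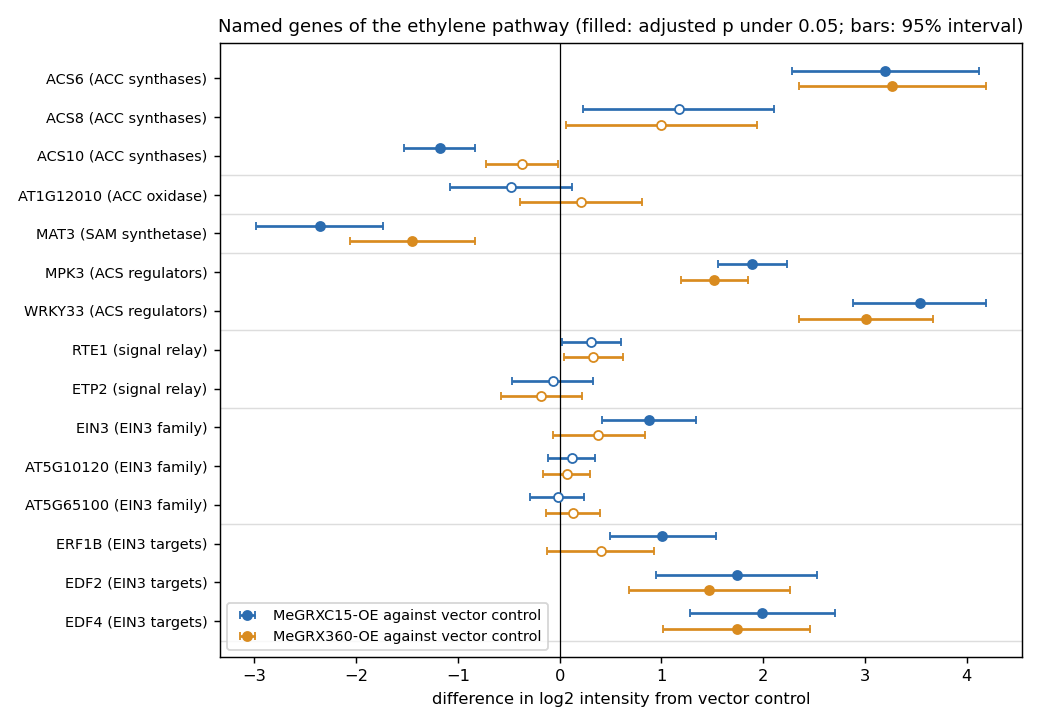
Difference in log2 intensity from vector control (horizontal axis) with the 95% interval from limma for the 15 named genes of the ethylene pathway, ordered by role, in *MeGRXC15*-OE (blue) and MeGRX360-OE (orange); filled points have an adjusted p under 0.05. *ACS6* and *WRKY33* lie farthest to the right, with values of 3.01 to 3.54, and *MAT3* farthest to the left, at -2.36 and -1.45.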

How the data were processed

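The authors deposited 1 value for each of 22810 probe sets on each array, an intensity on a linear scale from 3.242 to 15640, summarised with RMA per the labels. The sources used here give neither its version nor how its usual log2 output became linear. Log2 values of 22746 probe sets (64 controls left out) went into limma 3.58.1 (R 4.3.3) with 3 group means and a spread estimated over all 9 arrays (residual degrees of freedom 6, prior 2.76). P-values were adjusted by Benjamini-Hochberg. With 3 arrays a group, their number limits the precision. Members, gene lists and tests were chosen with earlier results of these data known. Genes named in the text are the 3 members, for each list at most 4 genes by size of change, and the 3 probe sets with 1 annotated gene nearest to each member; *RCA* is the named marker, and *CCA1*, *PDF1.2A* and Q9FX43_ARATH were chosen after their values were seen. On simulated data over 22746 probe sets, modelled on *MeGRXC15*-OE against vector, the fit found 79 of 100 planted log2 changes of size 1 and 91 of 100 of size 2, with 11 false calls. All other simulated probe sets were unchanged, whereas 22.0% were called in the data, so these rates do not carry over to the data. The planted probe sets were drawn at random, so the rates do not describe genes with the wide spread of *ACS6* and *ACS8*. Alternatives were a replicate block, quantile normalization, centred medians, the dimmest 40% left out, array quality weights, an intensity trend, a fit of only the 6 arrays compared, and each array left out. Python 3.11.15 with pandas 2.3.3 joined the tables and matplotlib 3.10.9 drew the plots. Promoter sequences were not analysed here.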

Additional observations from a re-analysis of the deposited data

How the results depend on the processing

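*ACS6* was called in both comparisons with vector under every alternative run, and no member was called between the OE groups under any. For *MeGRXC15*-OE against vector, *ACS8* was called with array quality weights (1.40) and had 0.94 to 1.59 when each array was left out in turn, and *EIN3* had 0.77 to 0.94, its call lost without vector array 2. Between the OE groups these ranges were -0.26 to 0.22 for *ACS6* and -0.11 to 0.59 for *ACS8*, so both signs occurred. The probe sets called in MeGRX360-OE against vector, 3746, became 5701 with quality weights and 2219 to 3147 with an array left out. Between the OE groups 33 became 21 with centred medians, 530 with quality weights, 5 with only the 6 arrays compared and 4 to 177 with an array left out, and with quality weights 2 genes of the pathway lists were called. The cause of these shifts was not tested. Whether the replicate numbers pair the arrays was not settled. Of 9 pairs with the same replicate number, r of the deviations was -0.212 to 0.267 and over 0.1 in 3. Pairs with unlike numbers ran from -0.41 to 0.227. With replicate number as a block, calls went from 5009 to 4724, from 3746 to 3302 and from 33 to 25, and no member changed its call (*ACS8* in *MeGRXC15*-OE 1.17, adjusted p = 0.0586 from limma).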

Other observations

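*PDF1.2A*, a plant defensin gene often used as a readout of joint ethylene and jasmonate signalling, was looked at after its values were seen. Its intensity in *MeGRXC15*-OE was 3410 in line 3, 5617 in line 9 and 7.89 in line 12. In MeGRX360-OE it was 50.9 in line 5, 401 in line 11 and 4902 in line 20. The vector arrays lay between 7.03 and 7.61, so line 12 was near the vector level and the other 5 OE arrays were above it. *ACS6* was at 1499 to 2948 on all 6 of these OE arrays, and *EIN3* was at 645, its highest value, in line 12, where *PDF1.2A* was at 7.89. With this spread the fold changes of *PDF1.2A* against vector, 6.20 (SE 2.43, adjusted p = 0.109) and 6.01 (SE 2.43, adjusted p = 0.140), did not pass limma's test.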
